A study of Rattus norvegicus with 4 samples.

Results

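Follistatin, the activin beta subunits, the bone morphogenetic proteins Bmp2 and Bmp4, the ligands Tgfb1 and Tgfb2 and the Id genes were followed in 2 sublines of the Dunning R3327 rat prostate tumour. The MAT-LyLu line, labelled highly metastatic, was read on 2 arrays, and the G line, labelled non-metastatic and used as the control, on 2 arrays. Total RNA was hybridised as biotin-labelled cRNA to oligonucleotide arrays, on which a probe set is the group of short probes that reads 1 transcript. No treatment or allele is given for either line, the labels name no separate cultures, and each line is a single line, so a difference between them is a difference between 2 lines and the spread is that between arrays. The 10 genes were Fst, Inhba, Inhbb, Bmp2, Bmp4, Tgfb1, Tgfb2, Id1, Id2 and Id3. They were chosen with results from the same comparison known (the signals of Fst and Id2 above all), and every probe set that the platform annotation gives to 1 of these symbols alone was then taken. That gave 14 probe sets for all 10 genes, of 8740 rat probe sets and 4736 named genes on the array. Since the comparison that chose them is the only one in the study, the values of these 10 genes are given as a description with no test. Where limma calls are counted for them, the counts describe the fit and test nothing about these genes.

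The TGF-beta superfamily comprises secreted dimeric ligands that bind pairs of type I and type II receptor kinases, which phosphorylate Smad transcription factors. Activins and the TGF-beta ligands act mainly through Smad2 and Smad3, and bone morphogenetic proteins through Smad1, Smad5 and Smad9. Follistatin binds activins outside the cell and keeps them from their receptors, and Id proteins, whose genes are classic targets of bone morphogenetic protein signalling, bind basic helix-loop-helix (bHLH) factors and keep them off DNA. In the prostate, TGF-beta and activin are known as inhibitors of epithelial growth.

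In MAT-LyLu the signals of Fst, Id2 and Tgfb1 were higher than in G, 5.82-fold, 3.83-fold and 2.52-fold. Id1 and Inhba differed by less, at most 1.40-fold, the Bmp2 signals were too near background for a measured size, and Inhbb, Tgfb2, Bmp4 and 1 of the 2 probe sets of Id3 had arrays of the lines that overlapped. Of the 14 probe sets, 10 had both MAT-LyLu arrays above both G arrays, none had both below, and 4 overlapped, where 27.9% and 36.3% of all rat probe sets had MAT-LyLu above and below. Signals are given in the deposited MAS5 units, and differences are MAT-LyLu minus G on the scale log2(signal + 16), with the standard error (SE) of a limma fit over all 6555 probe sets that passed a filter on low signals. In that fit 13 of the 14 probe sets were included, and 8 were higher and none lower at an adjusted p under 0.05. The limma fit called 13.6% of all tested probe sets higher and 20.1% lower. Without MAT-LyLu replicate 1 the count was 5, with Inhba, Bmp2 and the dimmer Id1 probe set no longer past the threshold. The comparison chose the genes, so nothing is read from these counts.

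**Figure D1:**
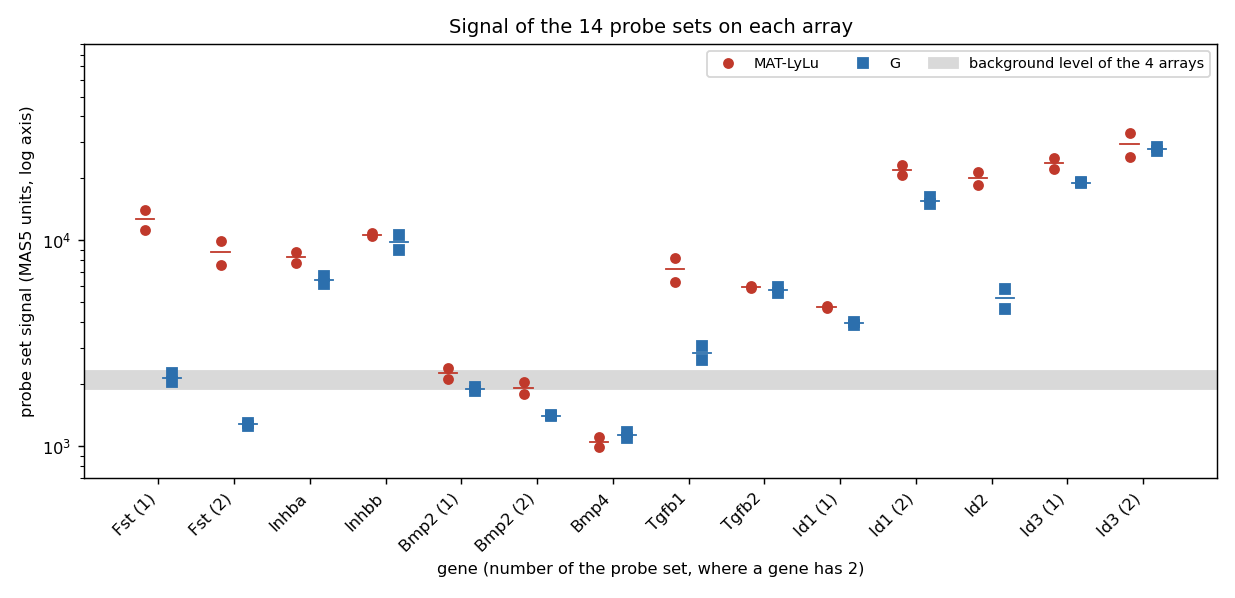
Signal of each of the 14 probe sets on each array (log axis, MAS5 units), with MAT-LyLu as circles on the left, G as squares on the right and a line at each mean. The grey band spans the background levels of the 4 arrays, 1891 to 2311, and the Fst, Tgfb1 and Id2 probe sets show the widest separation of the lines.

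Array medians were 2998 and 3015 in MAT-LyLu and 3156 and 3049 in G. Log2 signals of the tested probe sets correlated at r = 0.990 within either line and at 0.822 to 0.829 between the lines, across probe sets, which are not independent replicates. A background level was set for each array from 23 control probe sets for other organisms, as the 95th percentile of their signals, and lay between 1891 and 2311. Of 6 epithelial markers measured, only Krt8 was higher in MAT-LyLu. Krt5 (log2 difference 0.004) and Krt18 (0.007) did not pass at their brightest probe sets, and Krt18 was under background on both MAT-LyLu arrays and 1 G array. Krt14, Krt19 and Epcam were under background on all 4 arrays, as were the prostate secretory genes Pbsn, Tgm4, Svs4 and Svs5. Of 9 mesenchymal markers 7 were lower in MAT-LyLu, where 19.6% of all genes tested were lower and 13.7% higher. These 7 were Col1a1, Col1a2, Col3a1, Lum, Dcn, Thy1 and Pdgfrb. The summed signal of the 9 was 71919 and 70403 on the MAT-LyLu arrays against 203745 and 226601 on the G arrays. Vim read 38283 and 37448 in MAT-LyLu against 38640 and 51873 in G and did not pass (log2 difference -0.24). It made up a large part of the MAT-LyLu sums. Acta2 did not pass at its brightest probe set (X06801cds_f_at, -0.17) or at X06801cds_i_at (0.17). Its probe set rc_AA900769_s_at was lower by at least 6.15-fold, with both MAT-LyLu arrays under background. Of the leukocyte, endothelial, neuronal and muscle markers, 15 were tested at their brightest probe set and none passed limma's adjusted p of 0.05 there, with 2 muscle markers at an unadjusted p under 0.05. A dimmer probe set of the neuronal marker Nefl (M25638_s_at) was lower (log2 difference -0.36, adjusted p = 0.012). Their summed signals were 18431 and 19360 in MAT-LyLu against 19641 and 19081 in G for 7 leukocyte markers, and 5791 and 6229 against 5848 and 5821 for 3 endothelial ones. For 4 neuronal markers the sums were 17900 and 19089 in MAT-LyLu against 18887 and 18653 in G, and for 6 muscle markers 18282 and 19030 against 19373 and 21091. The part of these marker differences in the differences below was not tested. In bulk RNA a change in the share of cells that express a gene and a change in its level per cell cannot be told apart.

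Fst encodes follistatin, the secreted activin antagonist. Its first probe set (rc_AA858520_at) read 14066 and 11276 on the MAT-LyLu arrays, against 2259 and 2046 on the G arrays. Both MAT-LyLu arrays were far above background, and 1 of the 2 G arrays was below it. The log2 difference was 2.54 (SE 0.12), the 50th highest of the 6555, and ran from 2.31 to 2.77 over the 4 pairs of 1 array from each line. The second probe set (rc_AA858520_g_at) is built on the same sequence tag, as its name shows, and is no independent reading. It had 9912 and 7626 in MAT-LyLu, against 1297 and 1260 in G. Both G arrays were below background, so this difference is a bound, at least 4.20-fold. The G signals also lay under the level of the filter on low signals, 1492, so this probe set entered the fit through MAT-LyLu alone. The MAT-LyLu arrays differed by 0.32 and 0.38 on the log2 scale for these probe sets, replicate 0 being the higher, a gap several times smaller than the difference between the lines.

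The activins that follistatin binds are dimers of beta subunits. Inhba, which encodes the subunit of activin A, had 7776 and 8739 in MAT-LyLu, against 6700 and 6171 in G. The lines did not overlap. The log2 difference was 0.36 (SE 0.10), or 0.27 without MAT-LyLu replicate 1 and 0.30 without G replicate 1. Inhbb, the subunit of activin B, had 10446 and 10859 in MAT-LyLu, against 10630 and 8939 in G. Its arrays overlapped, and the log2 difference was 0.13 (SE 0.10). Within arrays, the ratio of Fst to Inhba was 4.54-fold higher in MAT-LyLu than in G (log2 change 2.18, from 1.93 to 2.44 over the 4 array pairs). That figure describes unequal change of both probe sets and does not compare their levels.

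**Figure D2:**
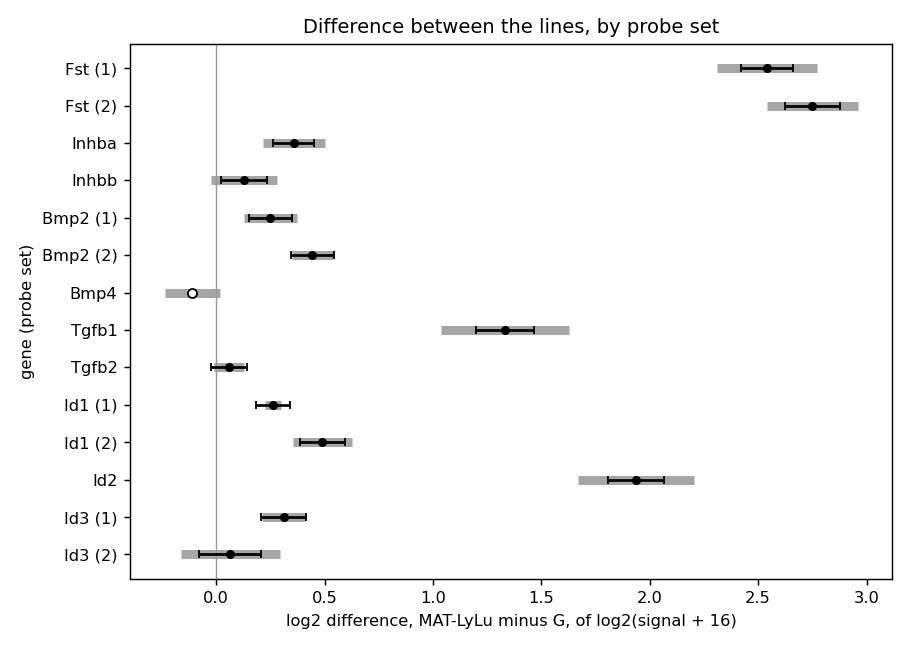
Log2 difference, MAT-LyLu minus G, of each of the 14 probe sets. Points with bars are the fitted difference and its SE, grey bars span the 4 pairs of 1 array from each line, and the open point is Bmp4, which did not pass the filter; the Fst, Id2 and Tgfb1 intervals lie above 1 (the second Fst probe set and both Bmp2 probe sets are drawn as fitted, with both G arrays under background), and the highest reach of the others is 0.63.

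Bmp2 and Bmp4, the bone morphogenetic proteins among the genes, were near or under background in both lines. The first Bmp2 probe set (L20678_at) had 2109 and 2403 in MAT-LyLu, against 1852 and 1931 in G. The lines did not overlap, but both G arrays were below background, so the difference is a bound of at least 1.09-fold. The second (rc_AA997410_s_at, whose suffix marks possible reading of related transcripts) had 1802 and 2042 in MAT-LyLu, against 1412 and 1400 in G. All 4 arrays were below background, so its log2 difference of 0.44 (SE 0.10) has no measured size. It is counted among the 8 probe sets called higher. Both G signals lay under the filter level of 1492, so it entered the fit through MAT-LyLu alone. Bmp4 had 992 and 1105 in MAT-LyLu, against 1172 and 1092 in G, and was the 1 member under the filter on low signals, which lay at 1492. Its arrays overlapped and were all below background.

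Tgfb1, the TGF-beta ligand of broadest expression, had 6309 and 8168 in MAT-LyLu, against 3065 and 2632 in G. All 4 arrays were above background and the lines did not overlap. The log2 difference was 1.33 (SE 0.14), and over the 4 array pairs it ran from 1.04 to 1.63. Tgfb2 had 5874 and 6027 in MAT-LyLu, against 5918 and 5520 in G. Here the arrays overlapped, and the log2 difference was 0.06 (SE 0.08). Within arrays the ratio of Tgfb1 to Tgfb2 was 2.42-fold higher in MAT-LyLu (log2 change 1.27).

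Id2, like Id1 and Id3, encodes an inhibitor of bHLH factors. It had 21460 and 18536 in MAT-LyLu, against 5825 and 4644 in G, all above background and without overlap. The log2 difference was 1.94 (SE 0.13), the 79th highest of 6555, and ran from 1.67 to 2.20 over the array pairs. Id1 was read by a pair of probe sets on the same sequence. Its first probe set (L23148_at) had 4784 and 4698 in MAT-LyLu, against 4017 and 3885 in G, a log2 difference of 0.26 (SE 0.08). The second (L23148_g_at) had 23205 and 20700 in MAT-LyLu, against 16207 and 15032 in G, a difference of 0.49 (SE 0.10). In both, the lines did not overlap. With an array left out, the difference ran from 0.24 to 0.29 for the first and from 0.41 to 0.57 for the second.

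Id3 was bright in both lines. One probe set (AF000942_at) had 25268 and 22212 in MAT-LyLu, against 19002 and 19151 in G, and the other (rc_AI171268_at), built on another sequence, had 33432 and 25383, against 27247 and 28433. The first had lines that did not overlap and a log2 difference of 0.31 (SE 0.10); the second overlapped, at 0.07 (SE 0.14). The MAT-LyLu arrays of the second differed by 0.40 on the log2 scale, the widest gap between arrays of that line among the 14 probe sets. Without MAT-LyLu replicate 0 its difference was -0.13, and without replicate 1 it was 0.26. The difference of the first was 0.39 under quantile, 0.36 under median and 0.40 under loess scaling. Within arrays the ratio of Id2 to Id3 (AF000942_at) was 3.08-fold higher in MAT-LyLu, and that of Id2 to Id1 (L23148_g_at) 2.73-fold higher, with log2 changes from 1.44 to 1.80 and from 1.31 to 1.58 over the array pairs.

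**Figure D3:**
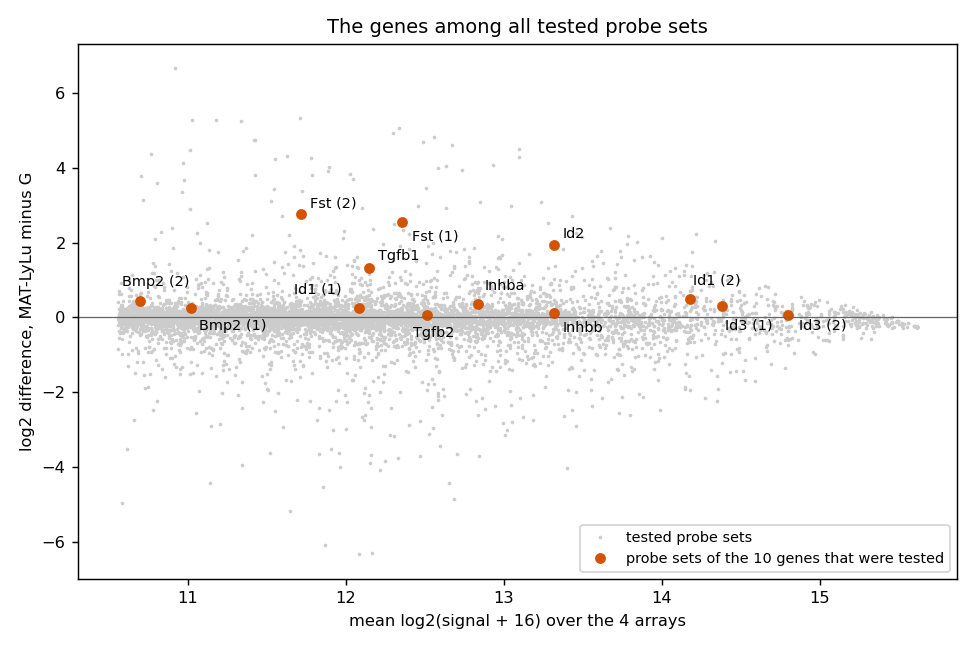
Log2 difference, MAT-LyLu minus G, against the mean log2(signal + 16) over the 4 arrays, for the 6555 tested probe sets (grey) and the 13 tested probe sets of the 10 genes (orange). Fst, Id2 and Tgfb1 lie above the main cloud, at 2.54 and 2.75, 1.94 and 1.33, where the 2.75 of the second Fst probe set rests on G signals under background and is a bound of at least 4.20-fold, while the other probe sets lie between 0.06 and 0.49.

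The 250 bases before the gene start are shown for the Id genes, because these paralogues differed in the size of their change, and for Tgfb1, as the ligand with the wider difference. They are from RefSeq on the GRCr8 build, 5′ to 3′ on the gene's own strand. Promoters were matched by symbol for 8 of the 10 genes, with no entry for Fst or Bmp2. Capitals mark the motif CCAAT on either strand (ATTGG on the printed one), a common promoter element bound by the factor NF-Y. The Smad-related motifs GGCGCC and CAGAC were searched on both strands as well and are in none of these 4 windows. Sequence farther upstream was not searched, so sites there are not covered. Of 33469 rat promoter windows of this length, 34.0% hold CCAAT, 8.69% GGCGCC and 42.9% CAGAC.
Id1, chr3:161671314-161671563, plus strand: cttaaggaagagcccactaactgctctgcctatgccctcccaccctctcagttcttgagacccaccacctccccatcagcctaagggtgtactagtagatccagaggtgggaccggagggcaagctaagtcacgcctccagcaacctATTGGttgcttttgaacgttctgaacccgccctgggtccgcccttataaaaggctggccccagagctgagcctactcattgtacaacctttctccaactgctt
Id2, chr6:47470996-47471245, minus strand: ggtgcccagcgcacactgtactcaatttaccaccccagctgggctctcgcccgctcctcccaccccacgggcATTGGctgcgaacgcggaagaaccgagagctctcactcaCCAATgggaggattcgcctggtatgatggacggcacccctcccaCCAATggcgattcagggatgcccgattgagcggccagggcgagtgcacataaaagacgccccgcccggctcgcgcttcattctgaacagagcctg
Id3, chr5:153656041-153656290, plus strand: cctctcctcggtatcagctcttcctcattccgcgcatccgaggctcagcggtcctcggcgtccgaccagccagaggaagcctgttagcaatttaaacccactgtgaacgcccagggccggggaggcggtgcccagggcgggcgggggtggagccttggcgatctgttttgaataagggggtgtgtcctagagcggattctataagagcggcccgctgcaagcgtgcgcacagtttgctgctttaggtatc
Tgfb1, chr1:90324062-90324311, plus strand: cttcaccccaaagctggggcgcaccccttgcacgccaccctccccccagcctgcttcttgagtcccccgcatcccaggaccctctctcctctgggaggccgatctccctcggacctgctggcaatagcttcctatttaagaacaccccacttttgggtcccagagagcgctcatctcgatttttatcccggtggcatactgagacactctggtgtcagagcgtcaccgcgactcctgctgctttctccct

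The Id2 window holds 3 CCAAT matches, ending 174, 135 and 91 bases before the start, the Id1 window holds 1, ending 99 bases before it, and those of Id3 and Tgfb1 hold none. At least 2 matches occur in 9.42% of all windows. No motif overlapped another. A match of letters is a description and says nothing of binding.

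The genes whose pattern over the 4 arrays was most like that of Fst, by the root mean square distance of centred log2 profiles, were Ptgs1 (0.11), Sdc1 (0.11) and Fdps (0.12). For Id2 they were Cd55 (0.06), Cyp51 (0.07) and Sri (0.08). With 4 arrays in 2 lines this likeness is mostly a like size of difference, with log2 differences of 2.34 to 2.50 for the first group, and of 1.95 for Cyp51 and 1.87 for Sri. Cd55 was under background on both G arrays, so its difference is a bound of at least 2.07-fold and its likeness rests partly on signals with no measured size. Ptgs1 and Cyp51 were each under background on 1 G array.

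Other genes of the pathway were taken from lists of ligands, receptors, binding proteins, Smads, target genes and Id partners, drawn up with earlier results of these data known. Of 107 listed genes 60 were on the array and 51 were tested, each at its brightest probe set. Of these, 7 were higher and 6 lower at an adjusted p under 0.05 in limma, or 25.5% in all, where 33.3% of the 3867 genes tested were called, 13.7% higher and 19.6% lower. The median log2 difference was -0.01 for the lists and -0.02 for all genes tested. Without G replicate 0 the count of higher genes was 11 in place of 7, with Acvr1, Inha, Smad2 and Smad7 added, named after their values were seen.

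Of 10 genes tested from the list of antagonists and binding proteins, which also holds the convertase gene Furin, 2 were higher and 2 lower. Over all genes tested 13.7% were higher and 19.6% lower. Ltbp1, the latent TGF-beta binding protein that anchors the inactive ligand in the matrix, had 25257 and 23915 in MAT-LyLu, against 5535 and 4705 in G. The lines were far apart, and Ltbp1 rose 4.80-fold (log2 difference 2.26, SE 0.10, adjusted p = 1.9e-06 in limma). Ltbp2, a related matrix protein, rose 1.51-fold (adjusted p = 0.00081 in limma) on the brighter of its 2 probe sets (Y12760cds_at). The other (AF016901_s_at) did not pass and had the opposite sign, at -0.13, with both MAT-LyLu arrays below both G arrays. A2m, alpha-2-macroglobulin, a protease inhibitor that also carries TGF-beta and activin, had 9784 and 8202 in MAT-LyLu, against 24921 and 21852 in G. It was 2.60-fold lower (adjusted p = 6.6e-05), with 2 of its 4 tested probe sets past the threshold. Nbl1, an antagonist of bone morphogenetic proteins, was 1.33-fold lower (adjusted p = 0.0075). The follistatin-like gene Fstl1 and the convertase gene Furin did not pass at the probe sets used, with log2 differences of -0.24 and -0.02; the other Fstl1 probe set was lower.

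Of the listed ligands other than the 10 genes 11 were on the array and 8 were tested, and of the receptors 10 and 5. The rest did not pass the filter on low signals. Over all genes tested 33.3% were called in either direction. Of 8 ligands tested, Bmp7 was lower, 1.26-fold (3293 and 3508 in MAT-LyLu, against 4363 and 4193 in G, adjusted p = 0.018), a call lost without G replicate 0 (adjusted p = 0.064) or without MAT-LyLu replicate 0 (0.10). Inha, the inhibin alpha subunit that pairs with the activin beta subunits, had a log2 difference of 0.23 (SE 0.12), and Gdf10 one of -0.04; neither passed. Of 5 receptors tested, Bmpr1a, a type I receptor for bone morphogenetic proteins, was 1.65-fold lower, with 3571 and 3118 in MAT-LyLu, against 6371 and 4750 in G (log2 difference -0.72, SE 0.14, adjusted p = 0.0058). Its lines did not overlap. The activin receptor gene Acvr2b and the TGF-beta receptor gene Tgfbr1 did not pass, at -0.01 and 0.11.

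**Figure D4:**
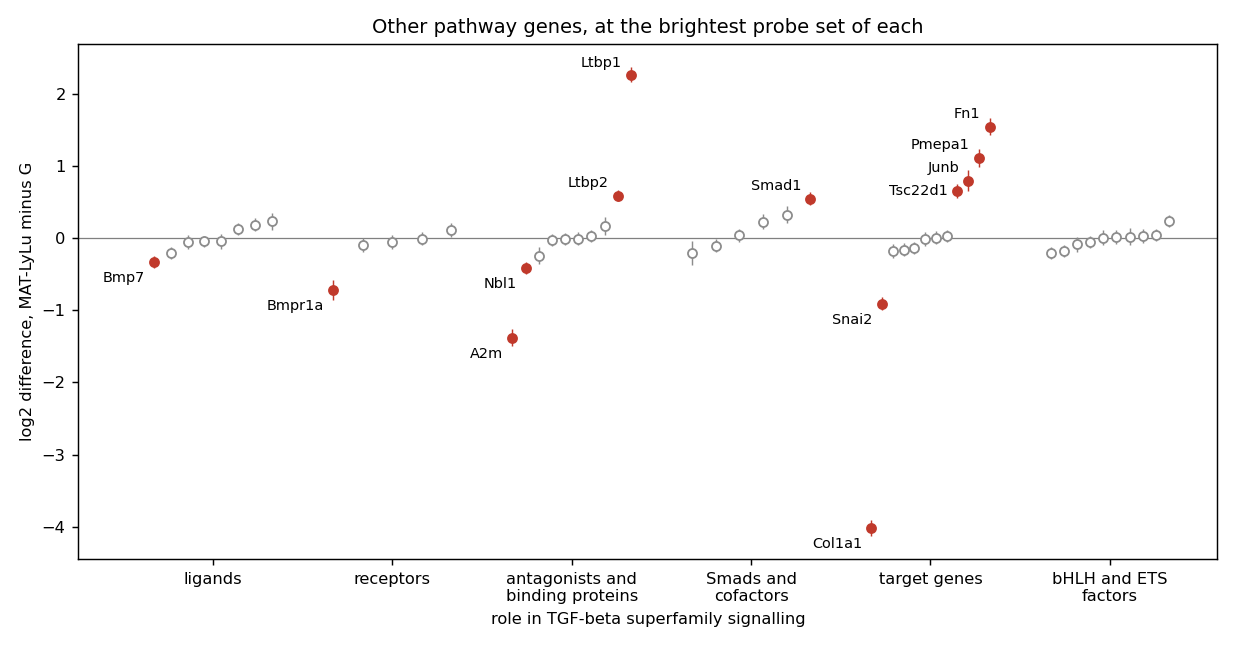
Log2 difference, MAT-LyLu minus G, of the 51 pathway genes tested outside the 10, by role, each with its SE. Filled named points are the 7 genes higher and 6 lower at an adjusted p under 0.05, and open points did not pass; Ltbp1 at 2.26 and Col1a1 at -4.02 are the extremes.

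Of 6 Smad genes tested 1 passed, where 33.3% of all genes tested did. Smad1, which carries the signal of bone morphogenetic proteins, had 4085 and 4472 in MAT-LyLu, against 2890 and 2937 in G, and rose 1.46-fold (adjusted p = 0.0017), with both of its probe sets past the threshold. Smad2, of the activin and TGF-beta branch, had a log2 difference of 0.33 (SE 0.12, adjusted p = 0.065) and passed under 6 alternatives, among them quantile, median and loess scaling (0.025 to 0.031). The other Smad2 probe sets did not pass and differed in sign, at 0.07 (AB017912_at) and -0.20 (rc_AI228675_at), the last with both MAT-LyLu arrays below both G arrays. Smad4, the partner shared by both branches, did not pass (-0.20, SE 0.17).

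Of 12 target genes tested outside the Id family 4 were higher and 2 lower, where 13.7% of all genes tested were higher and 19.6% lower. Pmepa1, a membrane protein induced by TGF-beta that restrains Smad signalling, had 22147 and 24247 in MAT-LyLu, against 11852 and 9654 in G, and rose 2.16-fold (adjusted p = 0.00023). Fn1, or fibronectin, rose 2.92-fold on its brightest probe set (X05834_at), and all 5 of its probe sets passed the threshold. The others ran from 1.21-fold (X05831cds_at, adjusted p = 0.049 in limma) to 3.94-fold (U82612cds_at). On M28259cds_at both G arrays were under background, so its fold is a bound of at least 2.9. Col1a1, a collagen gene that is also among the mesenchymal markers above, was lower on all 4 of its probe sets. The fold for Col1a1 depended on the probe set: 16.2-fold on the brightest (rc_AI231472_s_at), 6.80-fold and 6.19-fold on a pair built on one sequence, and at least 19.2-fold on the last, which was under background on both MAT-LyLu arrays. Without G replicate 0 or without G replicate 1 another Col1a1 probe set (Z78279_g_at) became the brightest, and the log2 difference was then -2.58 or -2.68 in place of -4.02. Snai2, the transcription factor Slug, had 1165 and 1205 in MAT-LyLu, both under background, against 2238 and 2241 in G. Its fall is a bound of at least 1.07-fold. Both MAT-LyLu signals also lay under the level of the filter on low signals, 1492, so Snai2 entered the fit through G alone. Snai2 was called lower there, but the call was lost with signals raised to the background level. Junb and Tsc22d1, which completed the 6 calls and were named after their values were seen, were 1.74-fold and 1.57-fold higher. Hes1 and the cell cycle inhibitor gene Cdkn1a did not pass, at -0.01 and -0.16.

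The 10 bHLH and ETS factors tested include partners of Id proteins and relatives of those partners. None passed limma's adjusted p of 0.05 at the brightest probe set, and 2 had an unadjusted p under 0.05. Over all genes tested 33.3% were called in either direction. Hand1, Hand2 and Myod1 were under background on all arrays, so their differences have no measured size and show no lack of change. Tcf12 and Tcf3, which encode E proteins, the main partners of Id proteins, had log2 differences of -0.18 (SE 0.08) and 0.03 (SE 0.09). The other Tcf12 probe set was lower. The E protein gene Tcf4, named after its values were seen, had 4274 and 4066 in MAT-LyLu, against 3459 and 3574 in G (adjusted p = 0.054), and passed with quantile, median and loess scaling and with the lower 50% left out.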

How the data were processed

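The authors deposited 1 table of linear probe set signal intensities, a column for each of the 4 arrays; the submitters' processing notes name MAS5. For its version, scaling target and detection filters nothing is stated (not given in the sources used here). As 2% trimmed means of the arrays differed by at most 7.83%, under a limit of 10%, the deposited intensities were used without further scaling. The array number limits the precision. Lines were taken from the sample titles. Symbols came from the platform annotation, updated by gene identifier through the GRCr8 RefSeq table: of 8740 rat probe sets, 7006 had 1 symbol, 308 several and 1426 none.

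The 59 control probe sets and the 25% of the others with the lowest mean log2(signal + 16) were left out. MAT-LyLu was compared with G by limma 3.58.1 in R 4.3.3 (lmFit, eBayes with an intensity trend, 2-sided, Benjamini-Hochberg over 6555 probe sets, threshold 0.05). The plan named no scale for the mean in the filter. The linear mean was run first, and the log2 mean, which an earlier analysis of these data used, replaced it after both sets of call counts had been seen; the linear mean is kept as an added alternative. The fit was also run on simulated arrays whose spread was taken from these same arrays. That run cannot show whether the spread is only technical. A gene was taken at its brightest tested probe set by that mean. The labels speak of duplicates without naming cultures, so the p-values rest on a spread that may be purely technical. Where both arrays of one line were below background, the fold is given as a bound, with dim signals raised to the background level.

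The genes and lists were chosen with earlier results of these data known. All probe sets of the 10 genes are named, and for each role list up to 4 genes past the threshold with the smallest p and up to 2 brightest that did not pass. Alternatives were the pseudocount (1, 64), the filter (none, 50%), quantile, median and cyclic loess scaling, no intensity trend, a floor at background, a block for replicate number, leaving out each array, and all probe sets of a gene.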

Additional observations from a re-analysis of the deposited data

How the results depend on the processing

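Over the 15 alternatives, log2 differences, given as a description of genes chosen on this comparison, were 2.38 to 2.70 and 2.07 to 2.94 for the Fst probe sets, 1.77 to 2.10 for Id2 and 1.15 to 1.52 for Tgfb1. Of the 14 probe sets 8 were called higher, and 5 to 7 with an array left out, the 5 being without MAT-LyLu replicate 1. The count was 9 under quantile, median and loess scaling and without an intensity trend, with Id3 (AF000942_at) added. None was lower under any alternative. The count of higher pathway genes ran from 7 to 11 with an array left out, and that of lower ones from 5 to 6. Over all tested probe sets 659 to 1012 were higher and 1004 to 1285 lower with an array left out, and 1125 and 1160 under quantile normalization. The filter on the mean linear signal, chosen after seeing the data, gave 908 higher and 1330 lower, with 8 of the 14 probe sets higher, and changed no named call. Both lines carry replicate numbers 0 and 1, and same-numbered arrays deviated together at r = 0.159 over 6555 probe sets, which with 2 pairs does not show that the numbers pair the arrays. With the replicate block 951 probe sets were higher and 1402 lower, with 8 of the 14 higher and 8 pathway genes higher and 6 lower; of the calls named by rule it changed that of Smad2, which was gained (adjusted p = 0.034 in limma). Differences near 0 changed sign. With quantile, median and loess scaling they were 0.0466, 0.0394 and 0.0508 for Acvr2b, 0.0458, 0.0354 and 0.0451 for Hes1, and 0.053, 0.029 and 0.0317 for Furin, and for Gdf10 0.0147 with quantile and 9e-04 with median scaling. With an array left out, the ranges were -0.1329 to 0.2643 for Id3 (rc_AI171268_at), -0.0713 to 0.0601 for Acvr2b, -0.0922 to 0.0728 for Hes1, -0.0702 to 0.0382 for Furin, -0.0569 to 0.1135 for Tcf3 and -0.4651 to 0.0602 for Smad4, whose lowest value passed the threshold. The cause of these changes was not tested. Of 534 alternative values of 36 probe sets and genes, 487 kept direction and side of the threshold, 15 gained a call, 11 lost one and 21 changed sign. Bmp2 and Snai2 have no value in settings whose filter removed them. Signal over background limits Bmp2, Bmp4, Snai2 and the G level of Fst.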

Other observations

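Among the receptor genes that the filter on low signals left out was Acvr1, a type I receptor. It read 1621 and 1660 on the MAT-LyLu arrays against 1276 and 1245 on the G arrays. Acvr2a, a type II receptor, read 1191 and 1309 against 1714 and 1577 on one probe set (S48190_at). On the other (S96418_s_at) it read 1198 and 1000 against 1735 and 1546. The lines did not overlap on any of these probe sets, but all arrays were below background, so none of these differences has a measured size. With no filter Acvr1 was called higher and Acvr2a lower. The receptor genes Acvr1b, Acvr1c and Acvrl1 were also left out by the filter and below background on all arrays. They were not called with no filter.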
